A study of Mus musculus with 8 samples.

Results

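The heat shock protein genes described here were Hspa1a, Hspa1b, Hspa8, Hspd1, Hspe1, Hsp90aa1, Hsp90ab1, Hsph1, Dnaja1 and Dnajb1. They were taken by gene symbol, and all 10 were found among the 15609 genes of the deposited count table. These genes and the other gene lists below were chosen with earlier results of these data known. RNA was sequenced in bulk from spleen CD8 T cells of wild-type C57BL/6 mice, which had been enriched with anti-CD8 beads and then sorted into 6 groups, giving 8 libraries. No group had been treated, and the mice's age and the number pooled in a library are not given in the labels. Naive cells (CD44- CD49d-) and true memory cells (CD44hi CD49d+) had 1 library each. Virtual memory (VM) cells, which were sorted as CD44hi CD49d- and have a memory phenotype without having met foreign antigen, were divided by the surface proteins Ly6C and Sca-1. Both Ly6C+ VM groups, Sca-1- and Sca-1+, had 2 libraries, and both Ly6C- VM groups, Sca-1- and Sca-1+, had 1 library. In each replicated group 1 count column has a suffix after the group's name and is called B here, and the column without it is called A. The suffix was p_m in Ly6C+ Sca-1- and p_p in Ly6C+ Sca-1+, so it was not the same for the 2 B libraries. What the suffixes mark is not stated, nor whether the 2 B libraries were handled together. Whether A and B came from separate mice is not stated either, so p-values measure only the spread between these libraries, which may be technical.

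Heat shock proteins are chaperones that help other proteins to fold, to stay in solution and to be refolded after damage. HSP70 proteins hold and release unfolded stretches in cycles that J-domain proteins start and that nucleotide exchange factors such as HSP110 end, HSP90 proteins finish the folding of kinases and steroid receptors, and HSP60 with HSP10 forms the folding chamber of mitochondria. Some of the genes are transcribed in every cell, and others are switched on by heat shock factor 1 (HSF1), which binds inverted repeats of the unit NGAAN. In T cells, HSP90 keeps the kinase Lck stable, and chaperones of several classes rise when the cells grow after activation.

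Library totals ran from 49993407 to 63815914 counts, and levels below are counts scaled to a common library total (CPM). The smallest count of a member in any library was 425, so that no level of a member is near the limit of detection. All 10 members passed the filter on low counts, which kept 15112 genes. Some markers of other cells were far lower, such as the plasma cell marker Sdc1 at 0.0496 CPM in Ly6C+ Sca-1- A. The 10 T cell marker genes summed to 4777 to 5683 CPM in the 8 libraries. Of the other lists, dendritic cell and MHC class II markers (9 of 9 in the table) summed to 5211 CPM in true memory against 239 and 362 CPM in the Ly6C- VM libraries and 46.3 to 127 CPM in the others, with the invariant chain gene Cd74 at 2081 CPM there. Monocyte and macrophage markers (12 of 13 in the table, without Ccr2) summed to 156 and 236 CPM in the 2 Ly6C+ Sca-1+ libraries, to 42.2 and 17.3 CPM in the 2 Ly6C+ Sca-1- libraries, and to 27.3 to 191 CPM in the others. Because RNA was measured in bulk, fewer cells of a type and less RNA per cell cannot be told apart.

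All 10 genes matched RefSeq (GRCm38.p6, the assembly of mm10) as protein-coding. Hspa1a (Gene ID 193740, chr17:34969359-34972156) and Hspa1b (Gene ID 15511, chr17:34956429-34959238) are the stress-inducible HSP70 genes, and they lie 10.1 kb apart on the minus strand. Their promoters are shown because these genes varied most between the libraries. The 250 bases before each start, read 5′ to 3′ on the minus strand, span chr17:34959239-34959488 for Hspa1b and chr17:34972157-34972406 for Hspa1a. Capitals mark matches to GAANNTTC, a pair of inverted HSF1 units.
Hspa1b: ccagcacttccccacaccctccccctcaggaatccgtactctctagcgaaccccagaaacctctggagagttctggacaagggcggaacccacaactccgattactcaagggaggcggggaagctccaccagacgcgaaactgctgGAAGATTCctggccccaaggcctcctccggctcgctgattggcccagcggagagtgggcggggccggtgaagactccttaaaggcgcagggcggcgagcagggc
Hspa1a: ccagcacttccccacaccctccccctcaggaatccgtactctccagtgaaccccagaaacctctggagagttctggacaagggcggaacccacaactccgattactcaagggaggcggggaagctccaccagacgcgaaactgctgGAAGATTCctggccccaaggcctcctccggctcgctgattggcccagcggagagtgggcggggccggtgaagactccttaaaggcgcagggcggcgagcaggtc
The 250 bases differed at 3 positions and were 98.8% identical. Counted as bases before the start, with the base of Hspa1b first and that of Hspa1a last, the differences were T207C, C204T and G2T, all outside the marked match, which began at -104 in both genes.

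Matches were also shown by the mitochondrial chaperonin genes, whose common promoter bears on the comparison of their levels, and by 2 other members. Hspd1 (Gene ID 15510, chr1:55077833-55088243), which encodes HSP60, and Hspe1 (Gene ID 15528, chr1:55088148-55091317), which encodes HSP10, lie head to head and their annotated spans share 96 bases. In the next 3 sequences, capitals mark GAANNTTC and TTCNNGAA, including matches that overlap each other.
Hspe1, chr1:55088053-55088082, plus strand: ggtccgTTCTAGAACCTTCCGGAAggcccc
Dnaja1, chr4:40722333-40722362, plus strand: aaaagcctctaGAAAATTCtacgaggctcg
Hsph1, chr5:149636351-149636380, minus strand: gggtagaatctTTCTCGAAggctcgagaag
The run of Hspe1 holds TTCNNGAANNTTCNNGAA, which reads the same on both strands, from -89 of the Hspe1 start and from -144 of the Hspd1 start. This motif was in 5 of the 32851 RefSeq promoter windows of 300 bases (250 before to 50 after a start), or 0.015%. The Hspd1 start used for the -144 is that of its promoter window, which lies inside the annotated span given above. By that span the motif is within Hspd1 and not before it. The Hsph1 sequence likewise lies before the start of a promoter window but inside the annotated span of Hsph1 given below. GAANNTTC was in 7.86% and TTCNNGAA in 8.52% of the windows, and 15.1% held either of them. Each reads the same on both strands, and the longer motif contains both. Of the 7 members in the table of promoters, Hspa1a, Hspa1b, Hspd1, Hspe1, Hsph1 and Dnaja1 had 1 of the short motifs at least, and Dnajb1 had none in this window. Hspa8, Hsp90aa1 and Hsp90ab1 were not in it. A match describes letters and does not show that HSF1 binds there.

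In every sort group the constitutive HSP70 gene Hspa8 and the constitutive HSP90 gene Hsp90ab1 held most of the counts of these genes, 66.7% to 73.4% of the summed members in the 8 libraries. All members together made up 0.505% of the counts in naive cells, 0.622% in true memory, 0.665% in Ly6C- Sca-1- VM and 0.752% in Ly6C- Sca-1+ VM. In Ly6C+ Sca-1- VM they made up 0.738% in library A and 0.549% in library B, and in Ly6C+ Sca-1+ VM 0.762% and 0.568%. The 2 libraries of a Ly6C+ group were thus farther apart than the same library of the 2 groups.

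Levels of different genes were compared per length, on the authors' TPM (read counts divided by transcript length and scaled to a common total) of the 4 groups with 1 library. In naive cells Hspa8 was at 1731 TPM and Hsp90ab1 at 1615 TPM, with the next, Hsp90aa1, at 264 TPM. Hspe1 stood at 249 TPM, Hspd1 at 146, Dnaja1 at 143 and Dnajb1 at 115 TPM. The inducible Hspa1b (108 TPM) and Hspa1a (61.7 TPM) and the HSP110 gene Hsph1 (68.3 TPM) were the lowest. Hspa1b reached 203 TPM in true memory. Differences between neighbours in this order have no replicate check.

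**Figure D1:**
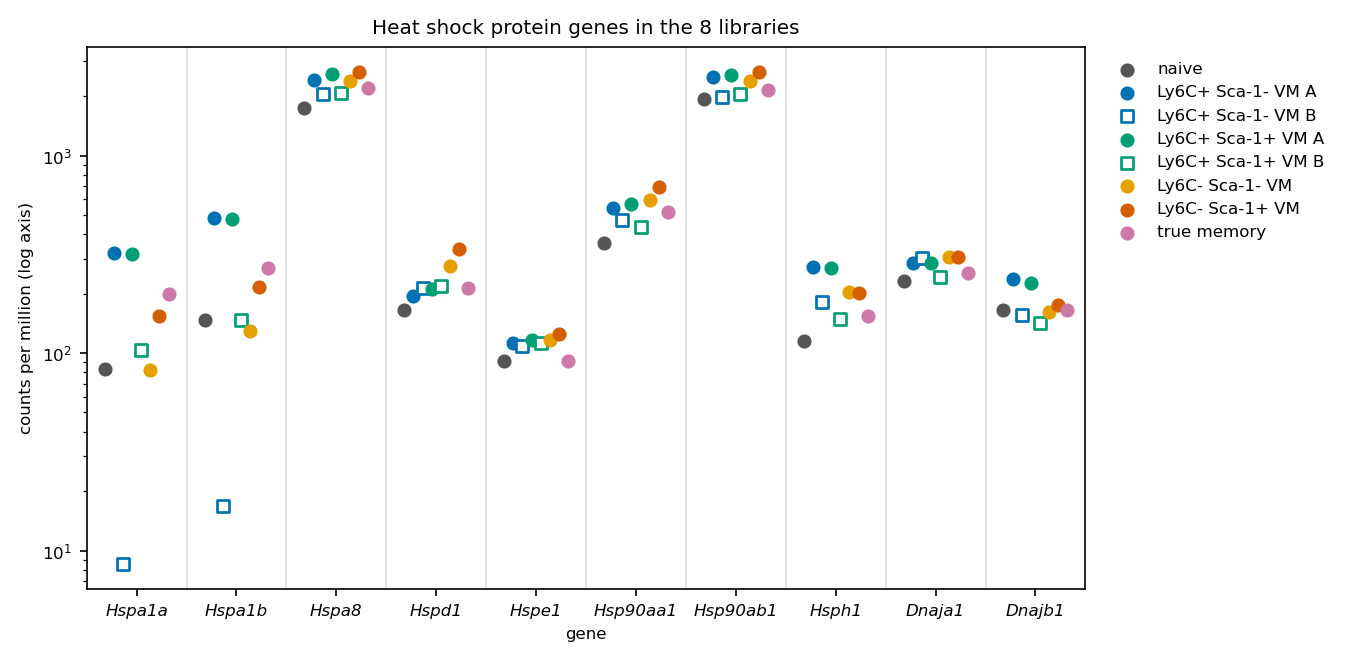
CPM (log axis) of the 10 heat shock protein genes, 1 point per library; colours give the sort group, filled circles the A or lone libraries and open squares the B libraries of Ly6C+ VM. Hspa1a and Hspa1b spread from 8.50 to 321 and from 16.7 to 485 CPM, and the other genes from 1.32-fold to 2.38-fold.

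Hspa1a and Hspa1b, the inducible HSP70 genes, stood apart by their range over the libraries. Hspa1a was at 82.9 CPM in naive cells, 200 CPM in true memory cells, and 81.9 (Sca-1-) and 153 (Sca-1+) CPM in the Ly6C- VM libraries. Among Ly6C+ VM libraries, Sca-1- A had 321 CPM and Sca-1- B 8.50 CPM, while Sca-1+ A had 317 CPM and Sca-1+ B 104 CPM. The highest and the lowest of the 8 values both came from the same sort group, and the 2 A libraries stood above the lone libraries of every other group.

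Hspa1b gave the same order: 146 CPM in naive cells, 270 CPM in true memory cells, and 129 (Sca-1-) and 217 (Sca-1+) CPM in the Ly6C- VM libraries. Among Ly6C+ VM libraries, Sca-1- A had 485 CPM and Sca-1- B 16.7 CPM, while Sca-1+ A had 475 CPM and Sca-1+ B 146 CPM. The highest value was 37.8 times the lowest for Hspa1a and 29.0 times for Hspa1b. Among 10037 genes with a mean of at least 5 CPM the median ratio was 1.45, and these ratios were at percentiles 98.5 and 98.3. Their transcripts are close copies: 46.9% of the 101-base windows of Hspa1a (the read length) were also found in Hspa1b in the GENCODE M21 transcripts, so how reads were divided between them is uncertain. Hspa1a held 33.7% to 42.5% of the counts of the pair in every library. Their sum, which does not depend on that division as far as reads were counted at all, ran from 25.2 CPM in Ly6C+ Sca-1- B to 806 CPM in Ly6C+ Sca-1- A.

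Hspa8, the constitutive HSP70 gene (Gene ID 15481, chr9:40801276-40805202), was at 1748 CPM in naive cells, 2206 CPM in true memory cells, and 2389 (Sca-1-) and 2661 (Sca-1+) CPM in the Ly6C- VM libraries. Ly6C+ VM libraries had 2423 and 2053 CPM (Sca-1- A and B) and 2590 and 2077 CPM (Sca-1+ A and B). Naive cells were lowest and the spread over all libraries was 1.52-fold. The counts of the inducible pair came to 1.23% of Hspa8 counts in Ly6C+ Sca-1- B and to 33.3% in Ly6C+ Sca-1- A, the lowest and the highest of the 8 libraries. Of the 101-base windows of Hspa8, 58.2% were also in the pseudogene Gm15459, so part of its counts may be assigned elsewhere.

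Hsph1 (Gene ID 15505, chr5:149616843-149636498), the HSP110 gene whose product exchanges the nucleotide of HSP70, was at 115 CPM in naive cells, 155 CPM in true memory cells, and 204 (Sca-1-) and 201 (Sca-1+) CPM in the Ly6C- VM libraries. Ly6C+ VM libraries had 274 and 181 CPM (Sca-1- A and B) and 270 and 149 CPM (Sca-1+ A and B). The A libraries were highest and naive cells lowest. Dnajb1 (Gene ID 81489, chr8:83608175-83612653), which encodes the HSF1-inducible J-domain protein HSP40, was at 166 CPM in both naive and true memory cells, and at 161 (Sca-1-) and 176 (Sca-1+) CPM in the Ly6C- VM libraries. Ly6C+ VM libraries had 238 and 156 CPM (Sca-1- A and B) and 225 and 142 CPM (Sca-1+ A and B), so the lone libraries all lay between B and A. Dnaja1 (Gene ID 15502, chr4:40722468-40734965), another cytosolic J-domain protein gene, stayed within 232 CPM (naive) and 307 CPM (Ly6C- Sca-1- VM), a 1.32-fold spread, the smallest of the 10.

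The HSP90 genes differed in how far they moved. Hsp90aa1 (Gene ID 15519, chr12:110691036-110696395), the inducible form, was at 361 CPM in naive cells, 516 CPM in true memory cells, and 599 (Sca-1-) and 691 (Sca-1+) CPM in the Ly6C- VM libraries. Ly6C+ VM libraries had 543 and 471 CPM (Sca-1- A and B) and 566 and 433 CPM (Sca-1+ A and B). Both Ly6C- libraries were above all 4 Ly6C+ libraries, and naive cells were below every other library. Hsp90ab1 (Gene ID 15516, chr17:45567778-45573261), the constitutive form, was at 1943 CPM in naive cells, 2153 CPM in true memory cells, and 2391 (Sca-1-) and 2655 (Sca-1+) CPM in the Ly6C- VM libraries. Its A and B libraries had 2497 and 1982 CPM (Ly6C+ Sca-1-) and 2557 and 2056 CPM (Ly6C+ Sca-1+), and the whole spread was 1.37-fold. No 101-base window of Hsp90ab1 was found in another gene's transcripts, whereas 39.4% of those of Hsp90aa1 were in the pseudogene Gm12346.

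Hspd1 differed little between the libraries of a sort group. It was at 165 CPM in naive cells, 215 CPM in true memory cells, and 276 (Sca-1-) and 337 (Sca-1+) CPM in the Ly6C- VM libraries. Ly6C+ VM libraries had 195 and 215 CPM (Sca-1- A and B) and 211 and 218 CPM (Sca-1+ A and B). Naive cells were lowest, the Ly6C+ and true memory libraries did not separate, and both Ly6C- libraries were highest. Its partner Hspe1 stayed between 90.7 CPM (true memory) and 125 CPM (Ly6C- Sca-1+ VM), with naive cells at 91.6 CPM and the 5 other libraries at 108 to 116 CPM. Hspd1 counts were 1.73 to 1.98 times Hspe1 counts in naive and Ly6C+ VM libraries, and 2.38, 2.69 and 2.37 times in Ly6C- Sca-1-, Ly6C- Sca-1+ and true memory. The ratio was therefore higher in all 3 of the latter libraries than in all 5 of the former, although the genes share a promoter region. Of the 101-base windows of Hspd1, 26.7% were also in transcripts of other genes, mostly the pseudogene Hspd1-ps3 (25.5%), and 20.3% of those of Hspe1 were.

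**Figure D2:**
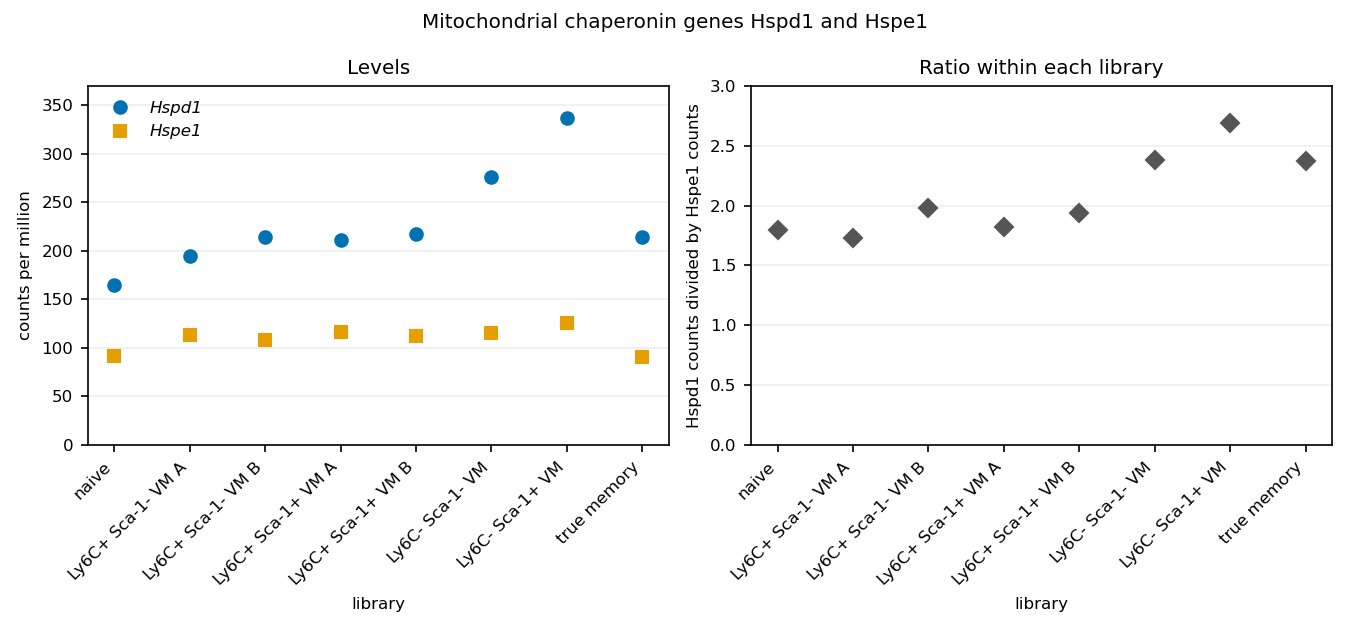
Left, CPM of Hspd1 and Hspe1, and right, Hspd1 counts divided by Hspe1 counts, 1 point per library. Hspd1 stood at 276 and 337 CPM in the Ly6C- VM libraries and at 165 to 218 CPM elsewhere, while Hspe1 stayed between 90.7 and 125 CPM.

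The libraries of a Ly6C+ group differed in these genes along the suffix. The 4 Ly6C+ libraries were fitted with edgeR's quasi-likelihood test with the sort group and A or B as terms, a comparison added after seeing the data. Of the 10 members, 7 were lower in B and 0 higher at a Benjamini-Hochberg adjusted p under 0.05, where 15.6% of all 14778 genes tested were called (8.76% lower and 6.85% higher in B). The median log2 difference was -0.38 for the members and 0 for all genes. Hspa1a fell by 3.26 ± 0.53 (SE) on the log2 scale from A to B (adjusted p = 0.0011) and Hspa1b fell by 3.24 ± 0.48 (adjusted p = 0.00051). Hsph1 fell by 0.80 ± 0.07 (adjusted p = 4.1e-06) and Dnajb1 by 0.71 ± 0.06 (adjusted p = 3.4e-06). Hsp90ab1, Hsp90aa1 and Hspa8 fell by 0.40, 0.37 and 0.35. The values of Hspe1 (-0.13), Dnaja1 (-0.15) and Hspd1 (0.02) did not pass. The fit had 1 residual degree of freedom and borrowed the rest of its precision from all genes (13 prior degrees of freedom). Hspa1a differed by -5.31 in Ly6C+ Sca-1- and -1.68 in Ly6C+ Sca-1+ VM, so its SE does not measure its own spread alone. With DESeq2, 6 members were called, and Hspa1a was not (-3.49, adjusted p = 0.096).

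Hspa1a was 39.8-fold higher in A than in B in Ly6C+ Sca-1- VM and 3.20-fold higher in Ly6C+ Sca-1+ VM, and Hspa1b 30.6-fold and 3.41-fold. Hsph1 was 1.60-fold and 1.90-fold higher in A, Dnajb1 1.61-fold and 1.67-fold, and Hsp90ab1 1.33-fold and 1.31-fold. Hspa8 was 1.25-fold and 1.31-fold higher in A, Hsp90aa1 1.22-fold and 1.38-fold, and Dnaja1 0.999-fold and 1.25-fold. Markers of other cells also differed between the groups: the median log2 value of B minus A was -1.69 in Sca-1- and 0.55 in Sca-1+ cells for 12 monocyte and macrophage markers, and -1.47 and 0.19 for 9 dendritic cell and MHC class II markers. Their part in the levels of the inducible pair was not tested. The difference in size between the groups was not tested, since each group has 1 library of each kind.

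In the other stress and chaperone lists, counts are to be read against the 8.76% of all genes called lower and the 6.85% called higher in B, and no test compared the lists. The co-chaperone gene Bag3, which links HSP70 to the removal of damaged proteins, was at 32.3 and 30.4 CPM in the A libraries and 13.2 and 10.3 CPM in the B libraries (log2 -1.50 ± 0.10, adjusted p = 2.4e-07). It was 1 of 4 of the 28 HSP70 and HSP90 co-chaperone genes that were lower in B, and 4 others, among them Cdc37l1 (0.54 ± 0.06), were higher. Of 28 genes of endoplasmic reticulum chaperones and the unfolded protein response, 8 were lower in B and 4 higher. Hspa5, the HSP70 of the endoplasmic reticulum, fell by 0.71 ± 0.06 and the stress-response factor Atf4 by 0.79 ± 0.06, whereas Hsp90b1, the HSP90 of that compartment, rose by 0.33 ± 0.06. None of 14 CCT chaperonin and prefoldin genes, which fold actin and tubulin, was called in either direction. Of 13 other stress genes 6 were lower in B and 0 higher, including the DNA damage-inducible Gadd45b (-1.30 ± 0.09).

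Immediate early genes, which are transcribed within minutes of a stimulus without new protein synthesis, moved with the same libraries. Of 28 on the list, 24 were lower in B and 0 higher, with a median log2 difference of -1.06. Their summed level was 13900 and 12960 CPM in the A libraries, 5975 and 6417 CPM in the B libraries, and 7954 to 9418 CPM in the 4 lone libraries. Nr4a1, an orphan nuclear receptor induced by T cell receptor signals, was at 374 and 340 CPM in A and 91.9 and 113 CPM in B. T cell markers were summed at 4777 and 4965 CPM in A and 5103 and 5418 CPM in B. Cell cycle genes were higher in B for 14 of 38 and lower for 2. The part of these differences in the levels of the heat shock protein genes was not tested.

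**Figure D3:**
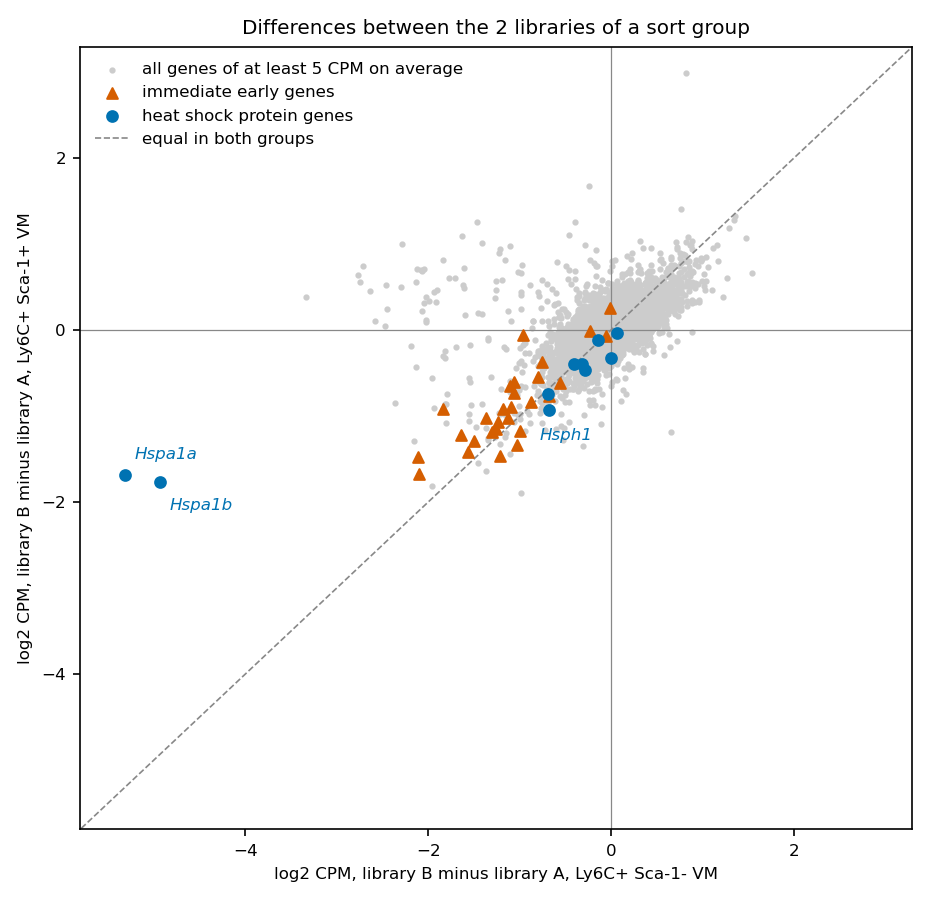
Difference in log2 CPM (prior count of 2) between library B and library A in Ly6C+ Sca-1- VM (x) and Ly6C+ Sca-1+ VM (y), for genes with a mean of at least 5 CPM (grey), immediate early genes (orange triangles) and the heat shock protein genes (blue circles). Hspa1a and Hspa1b lie at -5.31 and -4.93 on x and at -1.68 and -1.77 on y, left of the dashed line of equal differences.

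Sca-1+ and Sca-1- cells within Ly6C+ VM were compared to ask how the Sca-1 subsets differ (2 libraries against 2, in a fit of all 8). None of the 10 members was called, at either adjusted or unadjusted p under 0.05. Over all 15112 genes 0.00662% were called, which was 1 gene, and 4.3% (650 genes) had an unadjusted p under 0.05. DESeq2 called 223 genes and 0 members. Hspa1a had a log2 fold change of 0.32, with a 95% interval of -2.93 to 3.56, so that large differences in either direction were not detectable with these libraries. For Hspd1 (0.05, interval -0.16 to 0.27) and Hspe1 (0.03, -0.20 to 0.27) the interval was narrow. Between the A libraries Hspa1a differed by -0.04 and between the B libraries by 3.6, and Hspa1b by -0.04 and 3.12. Without Ly6C+ Sca-1- A, Hspa1a stood at 4.67 and Hspa1b at 4.26. That fit set 1 Sca-1- library, a B library, against the A and B libraries of Sca-1+ cells, so the suffix is mixed with Sca-1. Its spread came from 1 pair of libraries, and its calls are not read here. The authors' deposited table had 252 genes at an adjusted p under 0.05 in this comparison. It gave Hspa1a a fold change of 1.248 and none of the members an adjusted p below 1.

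Ly6C+ and Ly6C- VM cells were compared next, as means of the 2 Sca-1 groups of each (4 libraries against 2). Hspd1 was lower in Ly6C+ cells by 0.49 ± 0.08 on the log2 scale, or 1.41-fold. Its log2 fold change was -0.49 (95% interval -0.68 to -0.31, adjusted p = 0.0084). Hspd1 was the 1 member called, where 21.4% of all genes were called (12.6% lower and 8.88% higher in Ly6C+). The A libraries alone gave -0.50 and the B libraries alone -0.49 against the Ly6C- libraries. Without Ly6C- Sca-1+ VM the value was -0.35 and was not called (adjusted p = 0.12). In the authors' deposited table Hspd1 was 1.422-fold higher in Ly6C- VM, with an adjusted p = 0.00045, and was the 1 member among their 3244 called genes.

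Hsp90aa1 had a log2 fold change of -0.30 (interval -0.67 to 0.07, adjusted p = 0.21), with -0.13 from the A and -0.50 from the B libraries. For Hspa1a and Hspa1b the direction in Ly6C+ against Ly6C- cells rested on which Ly6C+ libraries were used. Hspa1a had a log2 fold change of 0.81 (interval -2.10 to 3.72), with 1.59 from the A libraries and -1.90 from the B libraries. Without Ly6C+ Sca-1- A it was -1.37, and without Ly6C+ Sca-1- B it was 1.29. These fits had a lone Ly6C+ Sca-1- library, and their calls are not read here. Hspa1b behaved alike, with 1.61 from the A libraries and -1.74 from the B libraries. Over the members, 7 of 10 values were above 0 with the A libraries and 10 of 10 below 0 with the B libraries. Hsph1 gave 0.51 and -0.29, and Dnajb1 0.54 and -0.17.

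Counts in the other chaperone lists stand against 12.6% of all genes called lower and 8.88% called higher in Ly6C+ cells, and no test compared the lists. Of 7 other HSP70, HSP110 and small HSP genes 2 were lower (Hspa4l, -0.69 ± 0.11; Hspb11, -0.75 ± 0.14). Of 28 co-chaperone genes 7 were lower and 0 higher, including the HSP90-binding immunophilin Fkbp5 (-0.68 ± 0.07) and Bag2 (-1.03 ± 0.20). Of 14 CCT chaperonin and prefoldin genes 3 were lower, among them Cct3 (-0.29 ± 0.08). Of the 28 endoplasmic reticulum genes 5 were lower, such as the disulfide isomerase Pdia6 (-0.53 ± 0.07). J-domain genes split, with Dnaja4 (0.84 ± 0.12) and Dnajc27 higher and Dnajc9 and Dnajb5 lower. The heat shock factor gene Hsf4 was higher in Ly6C+ cells (1.41 ± 0.31) at 4.18 to 7.99 CPM against 2.49 and 1.85 CPM. None of 17 mitochondrial chaperone and protease genes was called, nor did any have an unadjusted p under 0.05, as 36.2% of all genes did. Cell cycle genes were lower in Ly6C+ cells for 37 of 38 (summed at 958 to 1437 CPM against 2832 and 4226 CPM), and their part in the Hspd1 result was not tested. Markers of several other cell types, but not of all, were also lower in Ly6C+ cells. Dendritic cell and MHC class II markers (7 of 9 called lower, 1 higher) summed to 46.3 to 122 CPM in the Ly6C+ libraries against 362 and 239 CPM in the Ly6C- libraries. CD4 T cell markers (3 of 3 lower) summed to 3.76 to 9.28 CPM against 14.3 and 55.6 CPM, plasma cell markers (3 of 3 lower) to 0.640 to 5.63 CPM against 7.11 and 26.01 CPM, and erythroid markers (4 of 5 lower) to 3.54 to 19.2 CPM against 13.5 and 35.4 CPM. Monocyte and macrophage markers (2 of 12 called lower, 0 higher) summed to 17.3 to 236 CPM in the Ly6C+ libraries against 84.9 and 143 CPM. Of 8 B cell markers 3 were lower and 1 higher, and the 1 NK cell and 1 platelet marker tested were not called. The part of the markers of other cells in the Hspd1 result was not tested either.

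VM cells were compared with naive cells as the mean of the 4 VM groups (6 libraries) against 1 library. All 10 members had positive log2 fold changes, with a median of 0.53 against 0 for all genes, and 1 was called, where 5.39% of all genes were called (3.92% higher and 1.48% lower). Hspd1 rose by 0.63 ± 0.10 (interval 0.38 to 0.88, adjusted p = 0.024), or 1.55-fold. Hspd1 was above naive cells in 6 of 6 VM libraries, as were Hspa8, Hspe1, Hsp90aa1, Hsp90ab1, Hsph1 and Dnaja1, which were not called. How many of all genes lay above the 1 naive library in all 6 was not counted, so this does not set the members apart. Of all 15112 genes tested, 7586 had a positive log2 fold change. Hspa8 (0.47), Hspe1 (0.36), Hsp90aa1 (0.67) and Dnaja1 (0.35) had unadjusted p-values between 0.016 and 0.049 and adjusted p-values between 0.14 and 0.24, where 20.4% of all genes had an unadjusted p under 0.05. Hspd1 was at 0.63 both without Ly6C+ Sca-1+ A and without Ly6C+ Sca-1+ B. Those fits had a lone Ly6C+ Sca-1+ library, and their calls are not read here. Without Ly6C- Sca-1+ VM the mean was taken over the remaining VM groups, of which 1 was Ly6C-. In that fit Hspd1 was at 0.49 and was not called (adjusted p = 0.058). Its value was 0.62 with the A and 0.63 with the B libraries. DESeq2 called Hsp90aa1 as well (0.67, adjusted p = 0.0055). The fit with A or B as a further term, with lone libraries coded as A, called most members and is given under the processing.

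The sign of Hspa1a in this comparison depended on the library left out. Hspa1a stood at 1.07 without Ly6C+ Sca-1- B and at -0.26 without Ly6C+ Sca-1- A. These fits had a lone Ly6C+ Sca-1- library, and their calls are not read here. With the A libraries the values of all 10 members were positive (median 0.58), and with the B libraries those of 7 were (median 0.31). With the B libraries Hspa1a, Hspa1b and Dnajb1 were at -0.53, -0.69 and -0.07. Of the other chaperone lists, 1 of 28 endoplasmic reticulum genes was called, the stress sensor Atf6 (1.28 ± 0.14), and 0 genes of the co-chaperone, J-domain, CCT, mitochondrial and HSF1 lists. All 14 CCT chaperonin and prefoldin genes had positive values (median 0.21). Cell cycle genes were higher for 34 of 38.

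Against true memory, which also had 1 library, 0 of 10 members were called, with 2 at an unadjusted p under 0.05, where 4.57% of all genes were called (4.43% lower and 0.139% higher in VM) and 13.8% had an unadjusted p under 0.05. DESeq2 called 0 members. The fit with A or B as a further term, with lone libraries coded as A, called most of them and is given under the processing. Hspe1 had a log2 fold change of 0.37 (interval 0.11 to 0.63, adjusted p = 0.17) and Hspd1 of 0.24 (0 to 0.48, adjusted p = 0.35). Hspa1a was at -0.44 (interval -3.86 to 2.97), with -0.05 from the A and -1.80 from the B libraries. Without Ly6C+ Sca-1- A, Hspa1a was at -1.53 and Hspa1b at -1.29, and without Ly6C+ Sca-1- B, Hspe1 was at 0.39. These fits had a lone Ly6C+ Sca-1- library, and their calls are not read here. The true memory library held the dendritic cell and MHC class II transcripts given above, and their part in its levels was not tested.

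**Figure D4:**
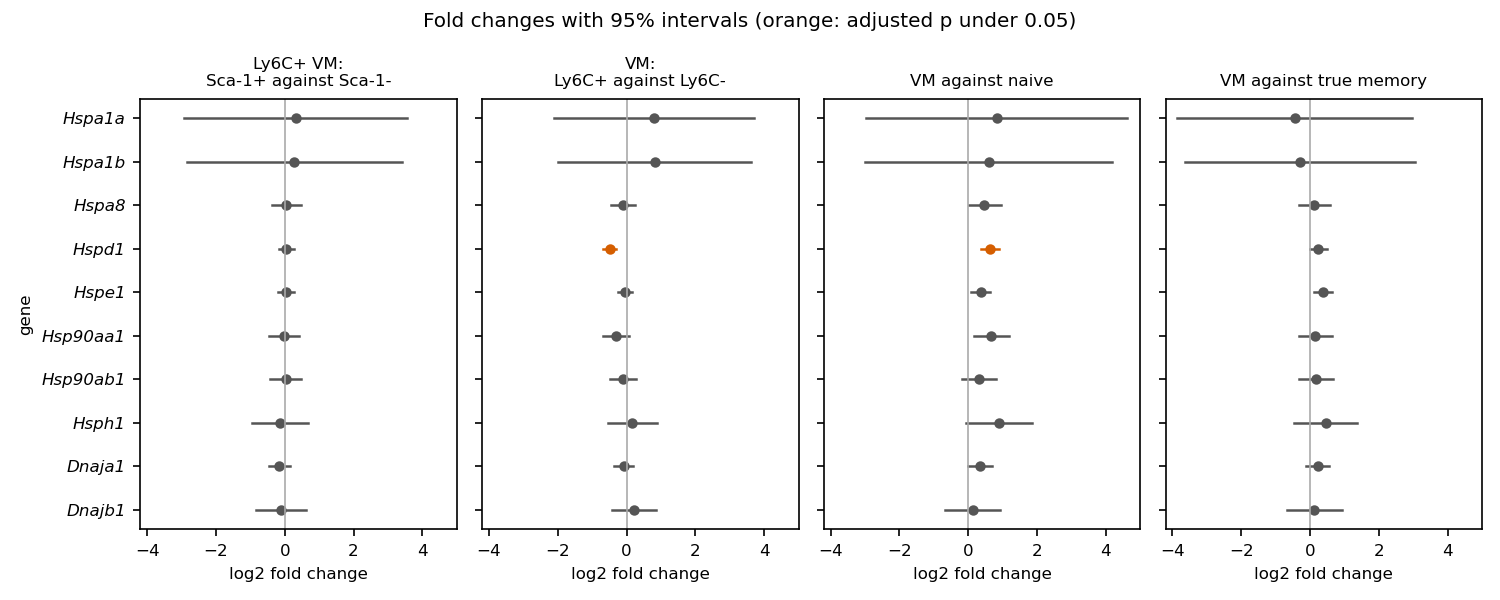
Log2 fold changes of the 10 genes (points) with 95% intervals (lines) in 4 comparisons of edgeR's quasi-likelihood fit of all 8 libraries; orange marks an adjusted p under 0.05. Hspd1 is marked in Ly6C+ against Ly6C- VM (-0.49) and in VM against naive cells (0.63), and the intervals of Hspa1a and Hspa1b are the widest in each panel.

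True memory and naive cells, and the Sca-1 groups of Ly6C- VM, were compared with 1 library on each side and no test. True memory exceeded naive cells in 9 of 10 members, with a median log2 difference of 0.36 against -0.01 for all genes. Dnajb1, 1 of the 9, was level at 1.003-fold. Hspa1a was the 1 member at least 2-fold higher (2.41-fold), where 7.23% of 10129 genes were at least 2-fold higher and 0.316% lower. Ly6C- Sca-1+ VM exceeded Ly6C- Sca-1- VM in all 10 members, with a median of 0.21 against 0.05 for all genes. None reached 2-fold, as 0.887% of 10032 genes did upward and 0.738% downward. The largest values there were 1.95-fold for Hspa1a and 1.76-fold for Hspa1b, and Hspd1 was 1.27-fold higher. The Sca-1 difference in Ly6C- cells minus that in Ly6C+ cells was positive for all 10 members (median 0.25), and 0 members passed at adjusted or unadjusted p under 0.05. Over all genes 0% were called in edgeR's test of this difference, with 768 (5.08%) at an unadjusted p under 0.05, and DESeq2 called 39 genes and 0 members. The fit without Ly6C+ Sca-1- A had 1 library in that group, and its calls are not read here.

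Genes with the most similar pattern were ranked by Pearson's correlation of log2 CPM over the 8 libraries, as a description, since libraries share sort groups and the A and B split. Next to Hspa1b were Hspa1a (r = 0.997), the spliceosome gene Prpf8 (0.935), Isoc2b (0.905), the linker histone gene H1f2 (0.903) and Babam2 (0.898). Next to Hspa8 were Gm15459 (0.991), a pseudogene that shares sequence with it, and Coq10b, Gpi1, Odc1 and Hsp90ab1 (0.976 to 0.958). Next to Hspd1 were the complex I subunit gene Ndufb6 (0.986), the mitochondrial elongation factor gene Tufm (0.982), Dcps (0.979) and the pseudogenes Gm10359 and Gm12537. Next to Hsp90ab1 were Cox16 (0.973), Hspa5 (0.969), the cold-inducible RNA-binding protein gene Rbm3 (0.965), Gm15459 and Hspa8. Between members, r was 0.96 for Hspa8 with Hsp90ab1 and 0.95 for Hspa8 with Hsp90aa1. It was 0.08 for Hspa1a with Hspd1.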

How the data were processed

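RNA of sorted mouse spleen CD8 T cells was sequenced in 8 libraries (TruSeq stranded mRNA, paired reads of 101 bases), with FastQC 0.11.7 for read quality and Trimmomatic 0.38 for trimming, per the labels' protocols. R 3.6.0, edgeR and mm10 are named in the submitters' processing notes. The sources used here do not name the aligner, the counter or its use of strand. The deposited values used were raw counts per gene, from which CPM and all tests were computed. The authors' TPM values were used for levels between genes in the lone libraries. The authors' fold changes (a signed score) and the authors' p-values are quoted where named. The smallest deposited count was 1, so genes at 0 in any library had been left out. Of the per-sample columns, 20 were not used, and titles number the replicates while columns carry a suffix instead.

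Genes were filtered with filterByExpr (15112 kept), scaled with TMM and fitted with edgeR 4.0.16 in R 4.3.3 by quasi-likelihood, with 1 coefficient per group over all 8 libraries (2 residual degrees of freedom, 4.14 prior degrees of freedom). Lone libraries were taken to vary as the replicated groups did. Calls were at a Benjamini-Hochberg adjusted p under 0.05 over all genes. SEs were derived from each fold change and its F statistic. One-against-one values and those of A or B libraries alone were differences of log2 CPM with a prior count of 2. DESeq2 1.42.0 and limma-voom (limma 3.58.1), other scalings and filters, each library left out and a block by suffix were alternatives. The text names all members, up to 2 higher and 2 lower genes of smallest p per pathway list, and the 5 genes of most similar pattern for 4 members. The members and lists were chosen with earlier results of these data known.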

Additional observations from a re-analysis of the deposited data

How the results depend on the processing

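Depth was ample for these genes, and the number of libraries limits the tests: 4 groups had 1 library, and the spread came from 2 pairs whose members differed along the suffix. Hspd1 stayed below 0 in Ly6C+ against Ly6C- VM in 13 alternatives (-0.63 to -0.35) and above 0 in VM against naive cells in 13 (0.49 to 0.64). Calls are not counted over these, since they include the fits without a Ly6C+ library. The call of Hspd1 was lost in both comparisons without Ly6C- Sca-1+ VM. Other scalings shifted the median of all genes by 0.07 at most.

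The replicate block by column suffix, with the lone libraries coded as A because their columns have no suffix, called 5 members in Ly6C+ against Ly6C- VM (6601 genes), 8 in VM against naive (4019), 7 in VM against true memory (2604), 0 in Ly6C+ Sca-1+ against Sca-1- (467) and 0 in the difference of Sca-1 differences (364). The 8 members against naive were all but Hspa1a and Hspa1b (0.29 to 1.05), and the 7 against true memory all but Hspa1a, Hspa1b and Dnaja1 (0.22 to 0.63, adjusted p from 0.00025 to 0.036). Over 10037 genes the A minus B differences of the 2 groups correlated at r = 0.57. The titles' numbers cannot be tied to the columns, however. The B libraries share only that their columns have a suffix, p_m in one and p_p in the other. Under the block, Hspa8, Hspe1 and Hsp90ab1 turned to 0.08, 0.01 and 0.09 in Ly6C+ against Ly6C- VM, and Hspa1a and Hspa1b to 0.05 and 0.19 against true memory. With limma-voom, Hspa1a and Hspa1b were at -0.12 and -0.06 in Ly6C+ against Ly6C- VM. The cause was not tested.

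The 1 gene called in Ly6C+ Sca-1+ against Sca-1- became 0 with library totals alone, no filter, a filter of 1 CPM in 2 libraries, or limma-voom, and 223 with DESeq2. DESeq2 called 1339 genes and 2 members in VM against naive, 39 genes in the difference of Sca-1 differences, and 1144 genes between B and A. With library totals alone the median of Ly6C- Sca-1+ against Sca-1- was 0.15.

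Leaving out a library gave 1 to 307 genes and 0 to 2 members in Ly6C+ Sca-1+ against Sca-1-, 1126 to 4381 genes and 0 to 4 members in Ly6C+ against Ly6C-, and 673 to 1918 genes and 0 to 6 members in VM against naive. It gave 680 to 1251 genes and 0 to 2 members against true memory, and 0 to 169 genes and 0 to 2 members in the difference of Sca-1 differences. Values that changed sign in Ly6C+ Sca-1+ against Sca-1- ran from -0.75 to 4.67 (Hspa1a), -0.86 to 4.26 (Hspa1b), -0.16 to 0.23 (Hspa8), -0.03 to 0.10 (Hspe1), -0.28 to 0.18 (Hsp90aa1), -0.18 to 0.25 (Hsp90ab1), -0.67 to 0.26 (Hsph1) and -0.53 to 0.27 (Dnajb1). In Ly6C+ against Ly6C- they ran from -1.37 to 1.29 (Hspa1a), -1.18 to 1.29 (Hspa1b), -0.19 to 0 (Hspa8), -0.11 to 0.02 (Hspe1), -0.10 to 0.36 (Hsph1) and -0.18 to 0.02 (Dnaja1). In VM against naive Hspa1a ran from -0.26 to 1.11 and Hspa1b from -0.41 to 0.85. Where a Ly6C+ library was left out, the spread came from 1 pair of libraries, so calls in those fits are not read as results. Where a Ly6C- library was left out, Ly6C+ against Ly6C- compared only the groups with the Sca-1 status of the Ly6C- library kept. The VM mean was then taken over the remaining VM groups.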
